A study of Mus musculus with 4 samples.

Results

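MicroRNA genes read above a fixed level were examined in mouse invariant natural killer T (iNKT) cells, T cells with a semi-invariant receptor for lipids presented by CD1d. The platform annotation gave 478 microRNA genes a probe set of their own, among 22180 genes named in this way. A microRNA gene was kept when the mean of its brightest probe set over the 4 arrays was 5 or more on the deposited log2 scale, which left 135 genes and set 343 aside. The genes were chosen by this mean level, so their levels are given as a description. The difference between genotypes played no part in the rule, although a gene near 5 could pass through the level of 1 group alone. Each gene was read by 1 probe set, except Mir191, Mir669i, Mir9-1 and Mir669k.

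The groups were 2 arrays of iNKT cells from CD4-Vα14Tg mice and 2 arrays of iNKT cells from wild-type (WT) mice. In CD4-Vα14Tg mice a transgene for the Vα14 T cell receptor α chain stands under the CD4 promoter, which is active in every thymocyte that expresses CD4, whereas WT iNKT cells have to rearrange this chain themselves. The labels name neither the organ, the sorting gate, the age and sex of the mice, nor whether the arrays of a group came from separate mice, and p-values therefore measure only the spread between these arrays. Total RNA was labelled for an Affymetrix whole-transcript array, and the deposited values are log2 values per probe set made by robust multi-array averaging (RMA). Each ± below is the SD of 2 arrays, and each adjusted p comes from limma, fitted over 13602 genes and adjusted by Benjamini-Hochberg with 0.05 as the threshold.

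A microRNA begins as a long primary transcript, often an intron or exon of a host gene, in which the microRNA lies in a hairpin. The nuclear enzyme Drosha cuts out the hairpin, Dicer1 trims it to a duplex, and an Argonaute protein holds 1 strand, whose seed (bases 2 to 8) pairs with target messenger RNAs. T cells without Dicer1 yield few iNKT cells, and the miR-181 family, miR-150, the let-7 family and the miR-17~92 cluster have been studied for their part in iNKT development. Whole-transcript labelling and silica column purification favour longer RNA. A microRNA probe set on such an array is taken here as a reading of RNA that spans the hairpin. The probe sequences were not given, so this was not examined, and levels of mature microRNAs were not analysed here.

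Mature sequences were taken from RefSeq, build GRCm38.p6. Entries on a single chromosome were not used, and 113 of the 135 genes had an entry among the others. Capitals mark the seed. The first set belongs to Mir701, which alone passed the test, and to Mir23b, Mir23a and Mir27a, 3 genes of the miR-232724 clusters whose measured values were lower in CD4-Vα14Tg cells.
mmu-miR-701-5p: uUAGCCGCugaaauagaugga
mmu-miR-701-3p: uAUCUAUUaaagaggcuagc
mmu-miR-23b-5p: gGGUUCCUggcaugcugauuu
mmu-miR-23a-5p: gGGGUUCCuggggaugggauuu
mmu-miR-23a-3p: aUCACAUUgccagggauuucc
mmu-miR-27a-3p: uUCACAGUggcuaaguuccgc
The hairpin of Mir701 is shown because its probe set is taken to read RNA across it, and here the capitals mark its 2 mature arms.
Mir701 hairpin: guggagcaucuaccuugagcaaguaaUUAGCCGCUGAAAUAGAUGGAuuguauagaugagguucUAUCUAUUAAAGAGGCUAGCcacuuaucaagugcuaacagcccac
It lies on the plus strand at chr5:111004144-111004252, within the span of Ttc28, a gene for a tetratricopeptide repeat protein, on the same strand.

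The second set shows members that share a seed, again in capitals. Of 171 distinct seeds among these entries, 9 were found in more than 1 member, and arms without an entry were not counted. For Mir23b the 5p arm alone is shown above, so a seed shared through its other arm is not shown. The 4 members of the miR-181 family share the seed ACAUUCA.
mmu-miR-181a-5p: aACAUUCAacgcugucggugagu
mmu-miR-181b-5p: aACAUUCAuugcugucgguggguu
mmu-miR-181c-5p: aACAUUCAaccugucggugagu
mmu-miR-181d-5p: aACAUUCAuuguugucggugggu
The members of the miR-15/16 family and of the let-7 family form 2 further seed groups.
mmu-miR-15a-5p: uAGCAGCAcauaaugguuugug
mmu-miR-16-5p: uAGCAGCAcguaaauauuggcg
mmu-let-7a-5p: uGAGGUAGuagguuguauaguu
mmu-let-7i-5p: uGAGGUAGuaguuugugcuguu
Mir16-1 on chromosome 14 and Mir16-2 on chromosome 3 give the same mature miR-16-5p from different hairpins. Mir142, a haematopoietic microRNA gene, and Mir7-1 stand apart by seed from those above. Mir7-1 shares the seed GGAAGAC with the member Mir7b, and the 2 were measured in opposite directions between genotypes.
mmu-miR-142a-3p: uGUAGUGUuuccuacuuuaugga
mmu-miR-7a-5p: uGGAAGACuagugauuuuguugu

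The level of 5 that defines the set is a modest one. It lay at percentile 49.0 of all 41345 probe sets, and the array medians ran from 5.04 to 5.07. Of the 478 microRNA genes 28.2% reached it, against 53.7% of all named genes, and the median of the microRNA genes was 3.94. Among the 135 genes kept, 62 had a mean under 6, 30 lay from 6 to 7, 28 from 7 to 8, and 15 at 8 or more. Just inside the level lay Mir139 at 5.01 and Mir5098 at 5.01, and just outside lay Mir298 at 4.99 and Mir30d at 4.98. In 8 genes 1 of the group means was below 5, and Mir701 is not among them. Mir5120 and Mir16-2, described below, are among them. Their WT means were 4.96 and 4.95, and they reached the level through CD4-Vα14Tg means of 5.51 and 5.47. Mir139, Mir3097 and Mir5098 also had the lower mean in WT, and Mir328, Mir1895 and Mir199a-1 had it in CD4-Vα14Tg.

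**Figure D1:**
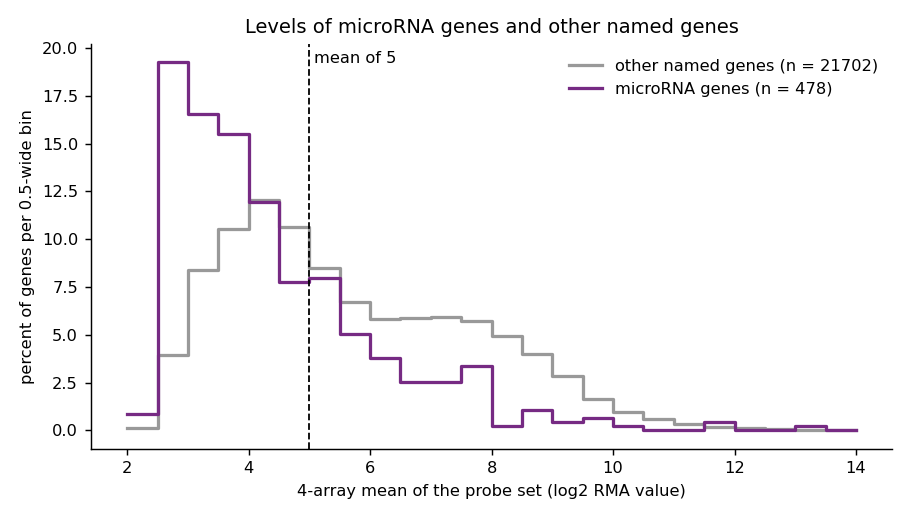
Percent of genes per bin of the 4-array mean (log2 RMA value) for 478 microRNA genes and all other named genes, with the level of 5 as a dashed line. Most microRNA genes lie to the left of the line, and the median microRNA gene is at 3.94.

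Genes typical of other tissues reached this level too, so that passing it does not by itself show that a microRNA is made in these cells. Of 17 microRNA genes of other lineages with a probe set of their own, 13 were below it, among them Mir122 of hepatocytes with a mean of 3.48 and Mir451a of red cells with 3.42. The 4 members were the neuronal genes Mir124a-2, Mir9-1 and Mir9-3, with means of 5.75, 5.12 and 5.75, and Mir375, a microRNA of endocrine cells, with a mean of 6.44. Conversely, Mir150, a microRNA abundant in mature lymphocytes, was not kept, with 4.04 and 4.52 on the CD4-Vα14Tg arrays and 4.45 and 4.80 on the WT arrays. Mir146, the gene of miR-146a, read from 2.58 to 2.86. Only 2 of 13 let-7 family genes with a probe set of their own, 4 of 6 miR-181 genes and 2 of 10 genes of miR-17~92 and its paralogous clusters were members. Mir183, Mir96, Mir182, Mir221, Mir222 and the 2 miR-29 and 6 miR-30 genes with a probe set of their own were below it: Mir182 had a mean of 3.21, Mir221 of 3.51 and Mir17 of 4.82.

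The brightest members were for the most part microRNAs known by number alone. The 4-array mean was 13.11 for Mir5099, 11.92 for Mir449b, 11.55 for Mir703, 10.05 for Mir692-1, 9.93 for Mir5125, 9.86 for Mir1938, 9.81 for Mir1195, 9.39 for Mir680-2 and 9.34 for Mir5123. Mir1956, within Eif4e, the gene of the cap-binding translation factor, had a mean of 8.79. Mir142 read 8.57 and 9.21 in CD4-Vα14Tg cells and 8.94 and 8.80 in WT cells. Probe sets differ in how strongly they bind, so these means do not rank the microRNAs by abundance. None of these 11 genes passed the test, and their differences ran from -0.42 for Mir1938 to 0.22 for Mir1956, which read 9.01 and 8.78 against 8.75 and 8.62.

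Labels and markers were compared before the genotypes. All 11 iNKT and T cell markers were read, with means from 6.29 for Slamf1 to 12.18 for Cd3e, and 2 of them, Il2rb and Klrb1c, differed between genotypes by limma. Markers of B cells had means of 3.27 to 5.34, myeloid markers 3.10 to 5.10, hepatocyte markers 3.37 to 5.45 and markers of CD8 T cells and double-positive thymocytes 3.96 to 5.81. Endothelial and stromal markers ran from 4.06 to 8.89, the highest being Pecam1, which leukocytes also express. Of the tested markers of other cell types, Itgam (CD11b) alone passed, and the part of other cells in the results was not tested.

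Between genotypes, a single microRNA gene passed the test. Of the 135 genes, all of which passed the filter on dim genes, 1 was called, or 0.741%, beside 1.95% of all genes tested. Mir701 was that gene, and it was higher in CD4-Vα14Tg cells (0.61% of all genes were called higher and 1.34% lower). The differences of the members had a median of 0.053 on the log2 scale, beside -0.022 over all genes tested, and 127 of them were smaller than 0.5 in size. A 1.5-fold difference or more was measured for 5 members, or 3.70%, beside 4.01% of all genes. An unadjusted p under 0.05 was found for 17 members, or 12.6%, 12 higher and 5 lower, and for 11.7% of all genes. Both arrays of one genotype lay beyond both of the other for 48 members, or 35.6%, beside 39.1% of all genes tested. These shares are near those of all genes or below them. The share with a difference above 0 was larger, at 80 members or 59.3%, beside 44.0% of all genes tested.

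**Figure D2:**
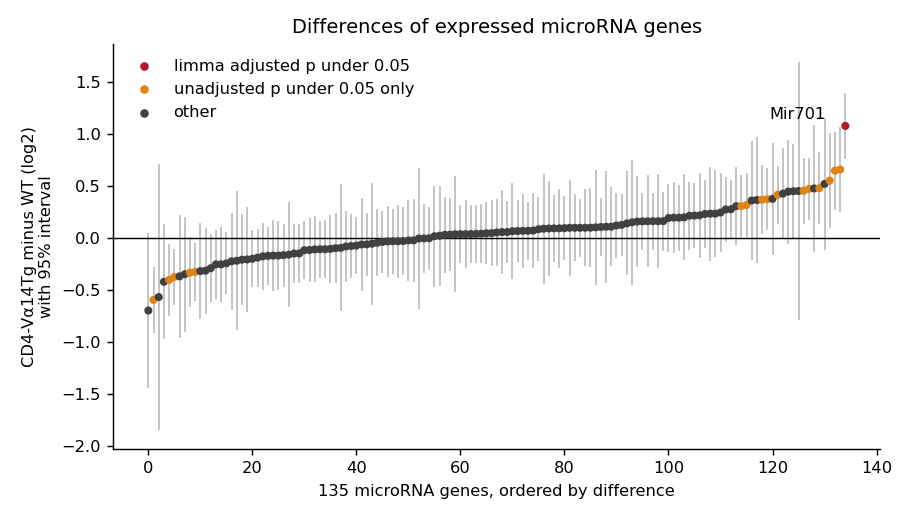
Difference of CD4-Vα14Tg minus WT (log2) with its 95% interval from limma for each of the 135 microRNA genes, in order of the difference. Colours mark genes with a limma adjusted p under 0.05, genes with only an unadjusted p under 0.05, and the others. Mir701 stands at the right end with 1.08, and most intervals cover 0.

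The spread between arrays of a group was larger for microRNA genes than for genes at large. The median SD was 0.154 for members in CD4-Vα14Tg and 0.134 in WT, beside 0.0997 and 0.0983 over all genes tested. The median half-width of the 95% interval of a difference was 0.337. For 126 of the 135 genes the interval lay within -1 and 1, so a 2-fold difference either way was outside it, and for 76 it lay within 1.5-fold. For the other 9 genes, Mir701 among them, a 2-fold difference was inside the interval.

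Mir701 rose in CD4-Vα14Tg cells. It read 6.71 and 6.45 on the CD4-Vα14Tg arrays and 5.56 and 5.45 on the WT arrays. Both CD4-Vα14Tg arrays were above both WT arrays, and the gap between the groups was wider than either gap between replicates. The difference was 1.08 on the log2 scale (SE 0.135, 95% interval from 0.76 to 1.39), a 2.11-fold rise with a limma adjusted p of 0.0110. Its call held in each of 9 alternative analyses, with differences from 0.95 to 1.20 and limma adjusted p from 0.00162 to 0.0483. In 4 of the 9 an array was left out and 1 genotype was a single array, whose spread was taken to be that of the other genotype.

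Its host gene Ttc28 was also measured higher and did not pass the test. Ttc28 read 7.51 and 7.66 in CD4-Vα14Tg cells and 7.06 and 6.81 in WT cells, and the groups did not overlap. The difference of Ttc28 was 0.66 (95% interval from 0.33 to 0.98, limma adjusted p = 0.0722). The interval of Ttc28 and that of Mir701 overlap, and the difference between the 2 was not tested.

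Other members lay above WT on both CD4-Vα14Tg arrays without passing the test. Mir345 read 6.83 and 6.95 against 6.50 and 6.45, a difference of 0.42 (limma adjusted p = 0.180). Mir1904, within Pde4d, a gene of a cyclic AMP phosphodiesterase, read 7.51 and 7.25 against 6.89 and 6.96, a difference of 0.45 (limma adjusted p = 0.199). Mir761, within Nrd1, a gene of a metalloprotease, read 7.54 and 7.89 against 7.23 and 7.25, a difference of 0.48 (limma adjusted p = 0.222). The groups of these 3 genes did not overlap, and the WT arrays lay closer together than the CD4-Vα14Tg arrays.

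Mir107, a microRNA within the pantothenate kinase gene Pank1, read 6.17 and 5.88 against 5.72 and 5.60, a difference of 0.37 (limma adjusted p = 0.354). Mir3075, within the transcriptional coregulator gene Zmiz1, had a difference of 0.37 (limma adjusted p = 0.278). Mir5120, within the B cell transcription factor gene Pax5, read 5.81 and 5.21 against 4.99 and 4.93 (difference 0.55, limma adjusted p = 0.298), and Pax5 itself lay below the filter. In Mir5120 the CD4-Vα14Tg arrays differed from each other by more than the second of them differed from WT. The WT mean of Mir5120 was 4.96, below the level of 5. Mir1899, Mir687, Mir28b and Mir329 had differences from 0.28 to 0.45 with limma adjusted p from 0.416 to 0.446.

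**Figure D3:**
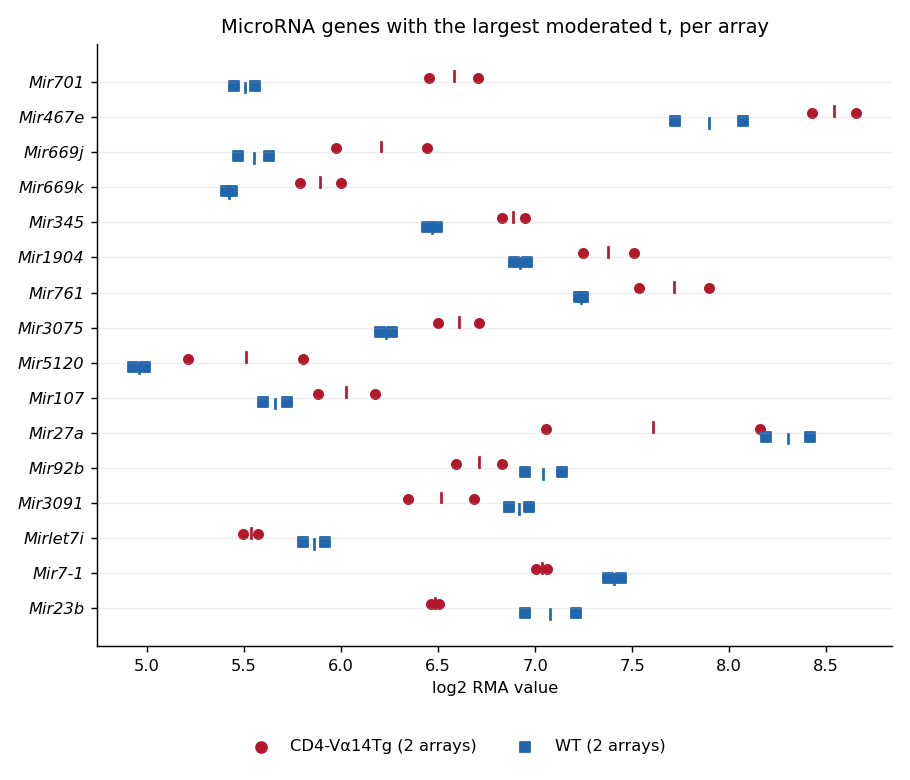
Log2 RMA value on each array for the 10 microRNA genes with the largest positive and the 6 with the largest negative moderated t. Circles are the 2 CD4-Vα14Tg arrays, squares the 2 WT arrays and short bars the group means. For Mir701 the circles lie at 6.45 and 6.71 and the squares at 5.45 and 5.56.

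Of the members measured lower in CD4-Vα14Tg cells, limma called 0, and 5 were below 0.05 before adjustment, namely Mir23b, Mir7-1, Mirlet7i, Mir3091 and Mir92b. Mir7-1, which lies within the RNA-binding protein gene Hnrnpk, read 7.01 and 7.06 against 7.37 and 7.44, a difference of -0.37 (limma adjusted p = 0.224). Hnrnpk itself differed by 0.003. Mirlet7i, a let-7 gene, read 5.50 and 5.57 against 5.81 and 5.92, a difference of -0.33 (limma adjusted p = 0.325). Replicates of these 2 genes lay close together and the groups did not overlap.

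Mir3091 read 6.34 and 6.69 against 6.87 and 6.97, a difference of -0.40 (limma adjusted p = 0.327). Mir92b, a relative of miR-92a, read 6.59 and 6.83 against 7.14 and 6.95, a difference of -0.33 (limma adjusted p = 0.417). In both genes 1 CD4-Vα14Tg array came close to the WT arrays. Further down, Mir9-3, Mir3085, Mir692-1, Mir1938, Mir665, Mir758, Mir3093, Mir877 and Mir341 had differences from -0.42 to -0.19, with limma adjusted p from 0.501 to 0.653.

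The miR-232724 clusters, of which one lies on chromosome 8 and the other on chromosome 13, restrain cytokine production of T helper cells when overexpressed. All 3 members were measured lower in CD4-Vα14Tg cells, and 0 passed the test. Among all 135 members 55 were measured lower, and 44% of all genes tested had a difference above 0. Of the 6 genes of these clusters, 3 had only probe sets with several gene symbols and were not read here. Mir23b, within the aminopeptidase gene Aopep, read 6.47 and 6.50 against 7.21 and 6.95, a difference of -0.59 (95% interval from -0.91 to -0.28, limma adjusted p = 0.0922). Its CD4-Vα14Tg arrays agreed closely and lay below both WT arrays, while Aopep differed by -0.105. Mir27a read 7.06 and 8.16 against 8.19 and 8.42, a difference of -0.70 (limma adjusted p = 0.474).

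Its neighbour Mir23a read 6.53 and 8.36 against 7.59 and 8.43, a difference of -0.57 (limma adjusted p = 0.823). Both chromosome 8 genes were lowest on replicate 1 of CD4-Vα14Tg. On replicate 2 of CD4-Vα14Tg, Mir27a was near both WT arrays and Mir23a was near WT replicate 2. Replicate 1 was the lower array in both genotypes for both genes. The gaps between replicates in CD4-Vα14Tg and WT were 1.83 and 0.834 for Mir23a, and 1.10 and 0.227 for Mir27a. Without CD4-Vα14Tg replicate 2 the difference of Mir27a was -1.25 (limma adjusted p = 0.0223), in a fit whose spread comes from the WT arrays and the prior alone. Without CD4-Vα14Tg replicate 1 that of Mir27a was -0.147 and that of Mir23a 0.349. The direction of Mir23a thus rests on 1 array.

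The miR-181 family tunes T cell receptor sensitivity in thymocytes, and mice without Mir181a-1 and Mir181b-1 have few iNKT cells. Mir181b-1 read 5.63 and 6.82 in CD4-Vα14Tg cells and 5.003 and 6.54 in WT cells. Array 2 was the higher in both genotypes, the gaps between replicates were 1.19 and 1.53, and the difference between genotypes was 0.45 (95% interval from -0.78 to 1.69, limma adjusted p = 0.871). Its cluster partner Mir181a-1, below the level of 5, read 3.64 and 4.24 against 3.28 and 4.13, again with array 2 the higher in both. Mir181c read 7.32 and 6.93 against 7.03 and 7.08, and Mir181d read 7.65 and 7.52 against 7.91 and 7.59. The differences of Mir181c, Mir181d and Mir181a-2 were 0.072, -0.17 and -0.0975, so the 4 that share the seed ACAUUCA had differences of both signs.

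Large gaps between replicates were found for few members. Mir181b-1, Mir23a and Mir27a were the 3 members, or 2.22%, in which arrays of 1 genotype differed by more than 1, beside 0.507% of all genes tested.

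The miR-15/16 family limits proliferation of lymphocytes. Mir15a read 7.02 and 6.09 in CD4-Vα14Tg cells against 6.73 and 6.38 in WT cells, with a difference of -0.005 (limma adjusted p = 0.999). Mir16-1, from the same transcript Dleu2, differed by 0.0325. Mir16-2, on another chromosome, read 5.54 and 5.40 against 4.49 and 5.41, a difference of 0.52 (limma adjusted p = 0.557). It was low on WT replicate 1 alone, and its WT mean of 4.95 was below the level of 5. Without WT replicate 2 its difference was 0.98 (limma adjusted p = 0.0462), with the low array alone as WT and the spread taken from the CD4-Vα14Tg arrays and the prior. Without WT replicate 1 it was 0.0635.

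Let-7 and miR-17~92 genes act on iNKT effector fate and survival. The let-7 family had 2 members, and miR-17~92 together with its paralogous clusters had 2. Mirlet7a-1 read 5.61 and 5.31 against 5.50 and 5.22, a difference of 0.0985 (limma adjusted p = 0.924), so that the 2 let-7 members with the seed GAGGUAG were measured in opposite directions. Mir18, of miR-17~92, differed by -0.023 (limma adjusted p = 0.991). Mir106b, of a paralogous cluster, lies within the replication helicase gene Mcm7. It read 5.64 and 5.67 against 5.29 and 5.59, a difference of 0.21 (limma adjusted p = 0.669), and Mcm7 differed by 0.21.

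The list of single lymphocyte microRNAs had 7 members, Mir142, Mir146b, Mir191, Mir210, Mir212, Mir342 and Mir425, with 0 called by limma and 0 below 0.05 before adjustment. Their differences ran from -0.0235 to 0.109, with a median of 0.031. Mir142, needed for lymphocyte homeostasis, differed by 0.0175 (95% interval from -0.47 to 0.50, limma adjusted p = 0.997). Mir210, a microRNA induced by hypoxia, differed by 0.109 (95% interval from -0.27 to 0.49, limma adjusted p = 0.916).

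A rodent cluster of microRNAs lies in the span of Sfmbt2, a Polycomb-related gene that is imprinted in early embryos. Of 22 microRNA genes with a probe set of their own in that span, 8 were members, and all 8 were measured higher in CD4-Vα14Tg cells. The median difference was 0.34, with a range from 0.0945 to 0.66, beside a difference above 0 in 44% of all genes tested and in 80 of the 135 members (59.3%). Limma called 0 of the 8, beside 1.95% of all genes tested. An unadjusted p under 0.05 was found for 4, beside 11.7% of all genes. In 4 the groups did not overlap, beside 39.1% of all genes. The microRNAs of this cluster are near-identical repeats, so their probe sets may share sequence and their values may not be independent.

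Mir467e read 8.66 and 8.43 in CD4-Vα14Tg cells against 8.07 and 7.72 in WT cells, a difference of 0.65 (95% interval from 0.27 to 1.02, limma adjusted p = 0.119). Mir669j read 5.98 and 6.44 against 5.47 and 5.63, a difference of 0.66 (limma adjusted p = 0.145). Mir669k read 5.79 and 6.001 against 5.44 and 5.41, a difference of 0.47 (limma adjusted p = 0.154). In each of these 3 both CD4-Vα14Tg arrays were above both WT arrays.

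All 9 probe sets of Mir669k were measured higher, by 0.10 to 0.79, though the 9 held 6 distinct sets of values. Mir669i differed by 0.32, and a second, dim probe set of the gene by -0.122. Mir669a-3, Mir466h, Mir669m-1 and Mir467c had differences of 0.37, 0.151, 0.1405 and 0.0945, and their arrays overlapped between groups.

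Sfmbt2 itself read 5.76 and 5.83 against 5.67 and 5.89, a difference of 0.018 (95% interval from -0.29 to 0.32, limma adjusted p = 0.991). The 14 microRNA genes of the span below the level of 5 were measured higher in 8 and lower in 6, with a median of 0.0398. Without CD4-Vα14Tg replicate 2, 5 of the 8 members kept a difference above 0, with a median of 0.288. Without CD4-Vα14Tg replicate 1, 7 of the 8 did, with a median of 0.556. Without WT replicate 1 all 8 did (median 0.456), and without WT replicate 2, 7 did (median 0.323).

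**Figure D4:**
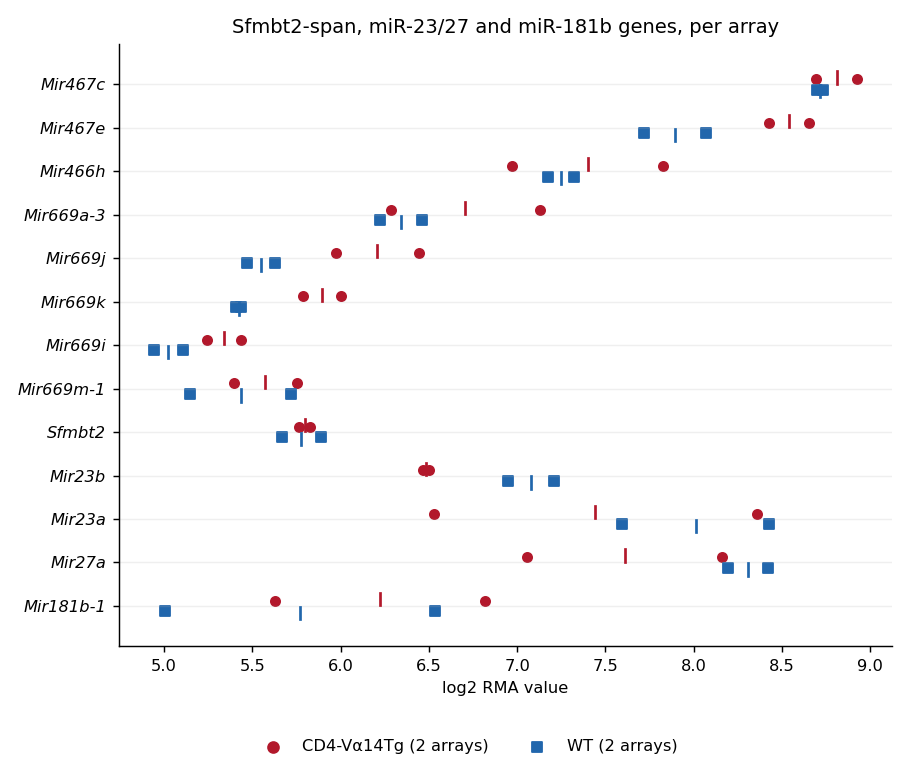
Log2 RMA value on each array for the 8 members in the Sfmbt2 span, Sfmbt2, Mir23b, Mir23a, Mir27a and Mir181b-1. Circles are CD4-Vα14Tg arrays, squares WT arrays and short bars group means. The circles of Mir467e lie right of its squares, those of Sfmbt2 lie among its squares, and Mir181b-1 runs from 5.003 to 6.82.

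The imprinted chromosome 12 cluster between Meg3 and Mirg, expressed from the maternal chromosome, showed no common direction. Of 43 microRNA genes with a probe set of their own there, 8 were members, 4 measured higher and 4 lower, with a median of -0.0223. Mir329 had the highest difference, 0.43, and Mir665 the lowest, -0.31. None of the 8 members passed the test (0 with an unadjusted p under 0.05 by limma). Of the 35 genes of the cluster below the level of 5, 16 were measured higher and 19 lower, with a median of -0.0245. Among these, Mir3070b differed by -0.588 (limma adjusted p = 0.0830) and Mir409 by -0.4585 (limma adjusted p = 0.146).

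Host genes were then set beside their microRNAs. RefSeq places 55 of the 106 members with a hairpin entry inside another gene on the same strand, and 47 pairs with 45 host genes were tested on both sides. Of these hosts, 1 was called. Endoglin (Eng), a coreceptor for transforming growth factor β, read 9.66 and 9.78 in CD4-Vα14Tg cells and 8.82 and 8.86 in WT cells, a 1.84-fold rise (limma adjusted p = 0.0145). Mir1954, within Eng, read 8.63 and 8.50 against 8.51 and 8.54, a difference of 0.042 (95% interval from -0.24 to 0.32). The intervals of Eng and Mir1954 do not overlap.

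In 31 of the 47 pairs the microRNA and its host had differences of the same sign. Across pairs, which share the same 4 arrays and are not independent replicates, Pearson's r of the differences was 0.355 and Spearman's rho 0.370. Without Mir701 and Ttc28, r was 0.195 over 46 pairs. Mir3058 differed by -0.038 within Nudt4, whose own difference was -0.58 (limma adjusted p = 0.169). Mir191 and Mir425, both within Dalrd3, differed by 0.0455 and -0.0235, beside -0.38 for Dalrd3 (limma adjusted p = 0.245), and Mir342 differed by -0.004 beside -0.20 for Evl, an actin regulator.

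**Figure D5:**
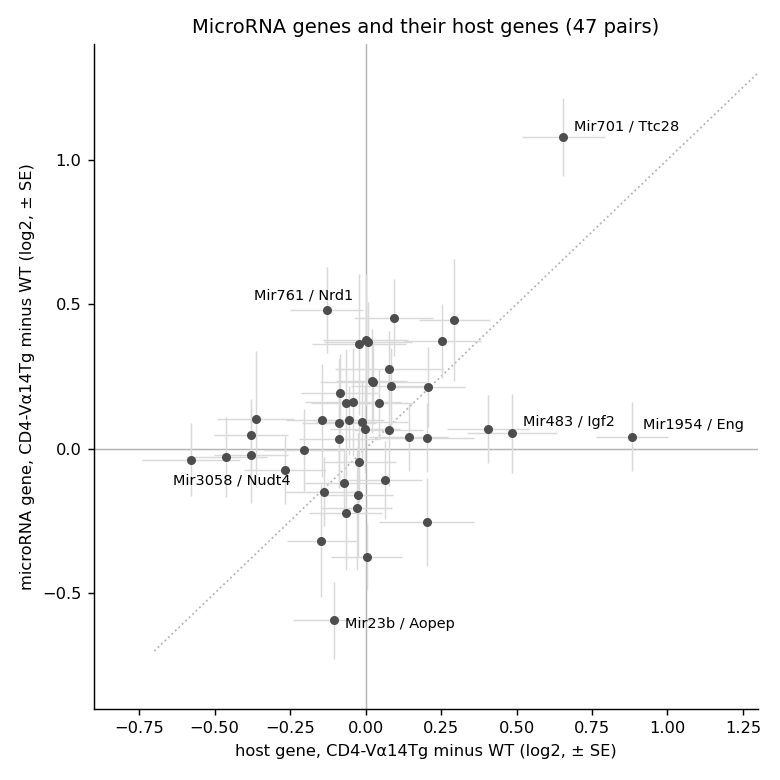
Difference of the microRNA gene (vertical axis, log2, ± SE) against that of its host gene (horizontal axis, log2, ± SE) for 47 pairs; the dotted line marks equal differences. Mir701 and Ttc28 lie at the upper right, and Mir1954 lies near 0 although Eng is at 0.88.

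Genes that make microRNAs or carry out silencing showed 0 calls by limma among 32 tested, beside 1.95% of all genes, with 1 at an unadjusted p under 0.05, beside 11.7%. The median difference was -0.0447, with 9 of 32 above 0 beside 44% of all genes, and the range was -0.43 to 0.189. The gene with an unadjusted p under 0.05 was Ran, the GTPase that powers export of hairpins and other cargo, which read 6.73 ± 0.023 against 7.16 ± 0.17 (difference -0.43, limma adjusted p = 0.210). Drosha differed by -0.0235 (95% interval from -0.29 to 0.24), Dicer1 by -0.083 (from -0.41 to 0.24) and Ago2, the Argonaute with slicing activity, by -0.084 (from -0.37 to 0.20). Prkra, a partner of Dicer1, had a difference of -0.23, Limd1 -0.149, Ncbp1 0.15, Pan3 0.149 and Tsn 0.189, with limma adjusted p from 0.527 to 0.801.

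Of 15 tested genes published as targets of lymphocyte microRNAs, 1 fell and 0 rose, beside 1.34% and 0.61% of all genes, with a median difference of -0.187. An unadjusted p under 0.05 was found for 6 of the 15, beside 11.7% of all genes. The gene that fell was Tbx21, the gene of T-bet and a target of miR-29, which read 7.41 and 7.79 against 9.07 and 8.91, a 2.62-fold fall (limma adjusted p = 0.00819). Bcl2l11, a pro-apoptotic target of miR-17~92, read 6.99 and 6.63 against 7.49 and 7.72, a difference of -0.79 (limma adjusted p = 0.0640). Myb, a target of miR-150, read 8.95 and 8.81 against 9.29 and 9.45, a difference of -0.49. Socs1, a target of miR-155, had -0.49 and Ptpn22, a phosphatase targeted by miR-181a, had -0.58, and neither passed. Hmga2, a let-7 target, had 0.41 and Dusp6, a phosphatase targeted by miR-181a, had -0.30, and neither passed. The named mature microRNAs were not measured here, and whether they and these genes moved together was not tested.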

How the data were processed

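The deposited values are log2 values per probe set, which the authors made with RMA in Affymetrix Power Tools, per the submitters' processing notes; for versions and build the sources state nothing (not given in the sources used here). GEO's platform annotation gave 23521 of 41345 probe sets 1 gene symbol, 1814 several and 16010 none. A gene was named only from the first kind, and 136 probe sets whose several symbols include a microRNA were not used. The brightest probe set stood for a gene.

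Genes at or above the 40th percentile of named probe sets on at least 2 arrays were tested, which left 13602. Groups were compared with lmFit and eBayes of limma 3.58.1 in R 4.3.3, on 2 against 2 arrays without covariates, with 95% intervals of the difference. Their number limits the precision. Tested on simulated data with the means of the same 13602 genes, this comparison recovered 88 of 100 genes changed by 1 on the log2 scale. It recovered 100 of 100 changed by 2, with 13 false calls. The simulated spreads were drawn from the prior that limma fitted to these data, with independent normal errors. The spread between arrays was larger for microRNA genes than for genes at large, so these shares do not give the recovery for microRNA genes. Tables and plots were made in Python 3.11.15 with pandas 2.3.3, numpy 2.4.6 and matplotlib 3.10.9.

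Text names members past the threshold, the 15 with the largest positive and the 15 with the largest negative moderated t, the 12 brightest, members of the family lists, and hosts or neighbours of these (Mir342, Mir466h and Mir669m-1 complete their lists). Of the biogenesis and target lists it names called genes and up to 6 others by moderated t. Drosha, Dicer1, Ago2, Mir7b, microRNA genes below the level of 5 and the host pairs of Mir1954 and Mir3058 were added after their values were seen. Members and lists were chosen with earlier results of these data known. Alternatives were no filter, quantile normalization, replicate number as a block, trend and robust options, the mean of a gene's probe sets, each array left out, and membership at 4 or 6.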

Additional observations from a re-analysis of the deposited data

How the results depend on the processing

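With 2 arrays a group, precision is low. Mir701 was called in every alternative run. Called microRNA genes numbered 1 without the filter, with quantile normalization, with trend and robust options, with mean probe sets and with membership at 4 or 6. They numbered 1 to 2 when an array was left out, when 166 to 221 of all genes were called beside 265, and the median microRNA difference ran from -0.035 to 0.077. Leaving out replicate 1 of CD4-Vα14Tg gave 169 calls over all genes, leaving out its replicate 2 gave 166, and leaving out replicate 2 of WT gave 166. Trend and robust options gave 320 and mean probe sets 270.

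With the replicate number as a block, 674 of all genes and 4 microRNA genes were called, adding Mir23b (limma adjusted p = 0.0338), Mir467e (0.0166) and Mir669j (0.0227). Same-numbered arrays deviated together with a correlation of 0.262 over all genes and 0.287 over the members. The labels give the shared numbers no meaning, so the arrays were not treated as pairs. Biogenesis genes had 0 calls by limma throughout.

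With mean probe sets, Mir669i and Mir9-1 fell below the filter, and 63 of the 65 members whose differences are given were tested. Of the 65 members, 28 changed sign when 1 array was left out. Under the other settings 0 did so where tested, and the causes were not tested. Their differences then ranged as follows. Mir1195 ran from -0.188 to 0.123, Mir142 from -0.3005 to 0.3355, Mir146b from -0.153 to 0.215, Mir15a from -0.4715 to 0.4615, Mir16-1 from -0.1445 to 0.2095, and Mir18 from -0.2555 to 0.2095. Mir181a-2 ran from -0.227 to 0.032, Mir181b-1 from -0.3155 to 1.2185, Mir181c from -0.1255 to 0.2695, Mir191 from -0.0395 to 0.1305, Mir210 from -0.057 to 0.275, and Mir212 from -0.0365 to 0.1515. Mir23a ran from -1.484 to 0.349, Mir375 from -0.055 to 0.452, Mir425 from -0.1975 to 0.1505, Mir449b from -0.036 to 0.205, Mir467c from -0.023 to 0.212, and Mir5123 from -0.513 to 0.065. Mir5125 ran from -0.12 to 0.257, Mir669a-3 from -0.0575 to 0.7885, Mir703 from -0.227 to 0.271, Mir9-1 from -0.0315 to 0.107, and Mirlet7a-1 from -0.0525 to 0.249. Mir342 ran from -0.1625 to 0.1545, Mir466h from -0.277 to 0.579, Mir669m-1 from -0.147 to 0.428, Mir1954 from -0.0225 to 0.1065, and Mir3058 from -0.1355 to 0.0595. With an array left out, 1 genotype is a single array, assumed to vary like the other.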
